A study of Homo sapiens with 4 samples.

Results

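AP-1 is a family of transcription factors made of paired basic leucine zipper (bZIP) proteins. The 10 genes described here encode FOS-type subunits (FOS, FOSB, FOSL1 and FOSL2), JUN-type subunits (JUN, JUNB and JUND), the JUN partner BATF3 and the small MAF proteins MAFF and MAFK. They were taken as a list of names and matched by symbol to the Ensembl identifiers of the count table, where all 10 were found among 60617 gene entries. Of these 10, 9 passed the low-count filter and were tested, and FOSL1 did not pass. The cells were SKNMC, an established human Ewing sarcoma line that is a single line and so a single tumour background. They were kept for 24 h either in the DMSO vehicle or in CBL0137 at 1 µM, with 2 RNA-seq libraries in each group and no further genotype or treatment named in the labels. CBL0137 is a curaxin, a DNA-binding small molecule that traps the histone chaperone FACT on chromatin, and the series is about FACT inhibition in this tumour. The question asked of these genes was which AP-1 transcripts differed between treated and vehicle cells. The labels name no separate cultures for the replicates, so each p-value covers only how far these samples spread, and that spread may be technical.

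FOS and FOSB lack the ability to pair with themselves and bind DNA mainly as partners of a JUN protein, whereas JUN proteins can also pair with each other. FOS, FOSB, JUN and JUNB are classical immediate early genes, switched on briefly by growth factors and stress through the MAP kinases. JUN is a strong activator of growth genes, JUNB and JUND often act against it, and BATF3 and the small MAF proteins lack a transactivation domain of their own and work through their partners.

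With CBL0137, JUNB, FOSB and MAFF rose and BATF3 and FOSL2 fell. JUN, the most abundant member per length, did not pass the test in either direction, nor did MAFK. FOS was 1.41-fold higher and JUND was 0.837-fold, both with an adjusted p under 0.05 but short of the 1.5-fold limit. Thus 3 of 9 tested members rose, against 18.2% of all 17374 tested genes, and 2 of 9 fell, against 15.1% (called by edgeR's quasi-likelihood test when the Benjamini-Hochberg adjusted p over all tested genes was under 0.05 and the fold above 1.5). Of those that rose, FOSB passed the low-count filter through the CBL0137 libraries alone, so it could be called higher only. It is counted in each share here. JUNB, FOSB and MAFF (GC content 64.9%, 57.6% and 61.9%) were all among the 3451 tested genes richest in GC. Of those 3451 genes 32.1% were called higher and 8.43% lower. JUND and MAFK, which were not called, were among them too. The part of GC content in these shares was not tested. In either direction 5 of 9 were called (55.6%), and 33.4% of all tested genes. An adjusted p under 0.05 with no fold limit was reached by 7 of 9 members (77.8%), beside 61.7% of all tested genes. The groups did not overlap in 7 of 9 members (77.8%), a share close to the 79.9% of all tested genes. The median log2 fold change was 0.03 over the 9 tested members and 0.01 over all tested genes.

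**Figure D1:**
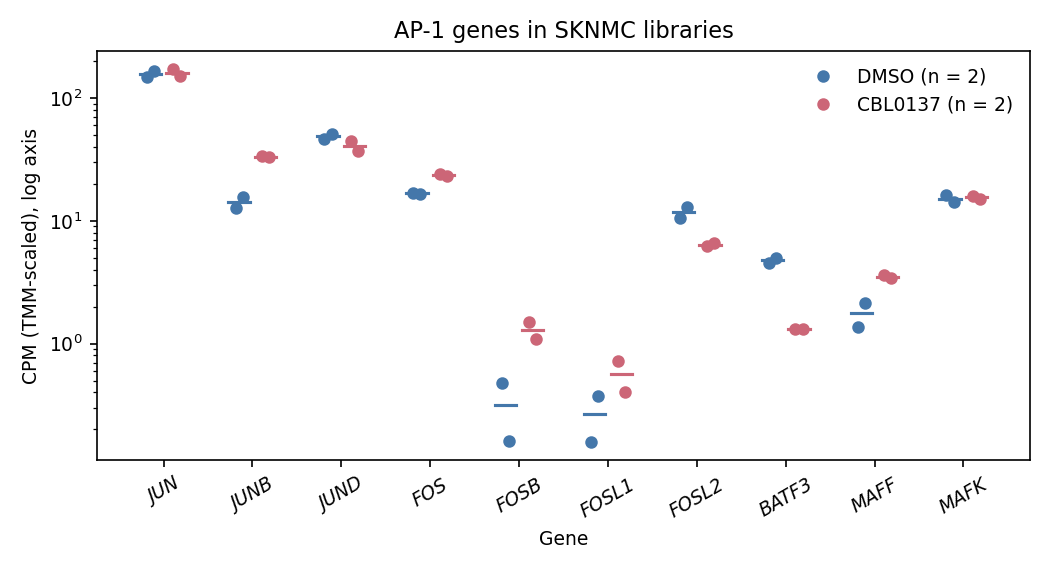
Abundance of the 10 AP-1 genes in each library, as CPM (counts-per-million, scaled by TMM factors, log axis). Points are the 2 libraries of a group and the short lines are group means. JUNB, FOSB and MAFF were higher with CBL0137 and FOSL2 and BATF3 lower, while the points of JUN and MAFK overlapped between groups.

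The stretches just upstream of these genes' starts share short motifs, which is why some of them are shown here. RefSeq promoter windows on GRCh38.p14 were matched for 7 of the 10 genes (FOS, FOSB, FOSL2, JUN, JUNB, JUND and MAFF, the last with 2 windows), and FOSL1, BATF3 and MAFK had none. The 100 bases before the start are printed 5′ to 3′ for 3 genes that rose, for FOSL2, which fell, and for JUN. Capitals mark the cyclic AMP response element core TGACGT, its full palindrome TGACGTCA, the related JUN-type site TGACATCA, and TATAAA. The positions are chr19:45467896-45467995 (plus strand) for FOSB, chr19:12791386-12791485 (plus) for JUNB, chr22:38201894-38201993 (plus) for MAFF, chr2:28392758-28392857 (plus) for FOSL2 and chr1:58784048-58784147 (minus) for JUN.
FOSB: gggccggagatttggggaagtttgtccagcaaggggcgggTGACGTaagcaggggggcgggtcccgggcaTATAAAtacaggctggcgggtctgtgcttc
JUNB: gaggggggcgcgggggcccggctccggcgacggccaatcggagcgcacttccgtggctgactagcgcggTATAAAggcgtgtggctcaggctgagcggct
MAFF: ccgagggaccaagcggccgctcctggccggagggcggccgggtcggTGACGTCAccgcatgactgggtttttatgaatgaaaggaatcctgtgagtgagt
FOSL2: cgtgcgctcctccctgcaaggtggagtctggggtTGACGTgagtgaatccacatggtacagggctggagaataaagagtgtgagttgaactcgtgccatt
JUN: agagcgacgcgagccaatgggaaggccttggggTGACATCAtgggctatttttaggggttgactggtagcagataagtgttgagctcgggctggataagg

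Over the 250 bases before the start, searched on both strands, TGACGT was found in 5 of 8 windows of these genes and in 7.1% of all 35116 windows of that length. It lay 64 to 59 bases before the start in FOS, 60 to 55 in FOSB, 66 to 61 in FOSL2, 87 to 82 in JUND, and 54 to 49 in MAFF. The palindrome TGACGTCA, which contains TGACGT, was in 2 of 8 windows, those of MAFF and, 200 to 193 bases before the start, JUND, and in 1.65% of all windows. The JUN window held TGACATCA 67 to 60 bases before the start, a site found in 2.37% of all windows. TATAAA on the sense strand was in 3 of 8 windows (FOS, FOSB and JUNB) and in 6.8% of all. The AP-1 site TGACTCA (4.2% of all windows) and the CArG box bound by serum response factor (1.16%) were in 0 of 8. Sequence further upstream was not searched, so such sites may lie there. The genes with TGACGT were FOSB and MAFF, which rose, FOSL2, which fell, and FOS and JUND, which were not called. A match of letters is a description only, and binding was not measured.

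Among the JUN-type genes, JUNB (ENSG00000171223, GRCh37 chromosome 19, 12902300 to 12904129, plus strand) changed most. Its CPM was 12.8 and 15.7 with DMSO and 33.5 and 33.1 with CBL0137. Both treated libraries lay above both vehicle libraries, and the gap was larger than the spread within either group. The group means were 14.2 ± 2.08 and 33.3 ± 0.310 CPM (SD, n = 2), and the log2 fold change was 1.22 (SE 0.10, edgeR adjusted p = 5.5e-14). JUNB remained called in each of 14 alternative analyses, with values between 0.69 and 1.38. The lowest value came from removing the trend of fold change with GC content and transcript length. The alternative without a fold limit reuses the main fit, so no call could be lost there. JUNB has a GC content of 64.9%, above 95.8% of the tested genes, and among the 3451 tested genes richest in GC 32.1% were called higher and 8.43% lower. The part of GC content in the JUNB value was not tested beyond this offset. HOOK2, on the opposite strand, shares 259 exon bases with JUNB and had a log2 fold change of 0.19 (SE 0.07, not called). The strand setting of the read counting is unknown here.

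JUN (ENSG00000177606, chromosome 1, 59242517 to 59249720, minus strand), the founding member and main partner of FOS, had 149 and 167 CPM with DMSO and 172 and 150 CPM with CBL0137. These values interleaved. The log2 fold change was 0.02 (95% interval -0.09 to 0.14, edgeR adjusted p = 0.748), an interval that lies inside the 1.5-fold limit on both sides (0.58 on the log2 scale). Its sign turned with the setting, to -0.19 with the GC and length trend removed, and it was called in none of the alternatives.

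JUND (ENSG00000130522, chromosome 19, 18390504 to 18392432, minus strand), an often constitutive subunit, stood at 46.4 and 51.4 CPM with DMSO and at 44.4 and 37.4 CPM with CBL0137. The groups did not overlap, but the lowest vehicle library and the highest treated library lay close together, and the deposited FPKM values overlapped. The log2 fold change was -0.26 (SE 0.08, edgeR adjusted p = 0.00479), which did not reach the fold limit. This value depended on the GC correction more than that of any other tested member: JUND is richer in GC (69.9%) than 98.9% of tested genes, and with the GC and length trend removed it was at -0.94 (SE 0.08) and was called lower. With library size alone it was at -0.10.

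The balance within the JUN-type genes was taken from the deposited FPKM values, which are per length. JUNB made up 13.8% and 14.4% of the summed JUN, JUNB and JUND FPKM with DMSO and 25.6% and 27.5% with CBL0137. JUN made up 55.2% and 54.9%, then 50.5% and 49.8%, and JUND 31.02% and 30.7%, then 23.9% and 22.8%. The share of JUNB was thus higher, and those of JUN and JUND lower, in both treated libraries. The ratio of JUNB to JUN counts, in which library scaling cancels, was 0.0856 and 0.0939 with DMSO and 0.195 and 0.22 with CBL0137, a log2 difference of 1.21 (SE 0.11). The ratio of JUND to JUN counts was 0.311 and 0.307, then 0.259 and 0.249. With 2 libraries against 2, the smallest two-sided p of an exact permutation test is 0.333, and the JUNB and JUND ratios each gave that value.

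**Figure D2:**
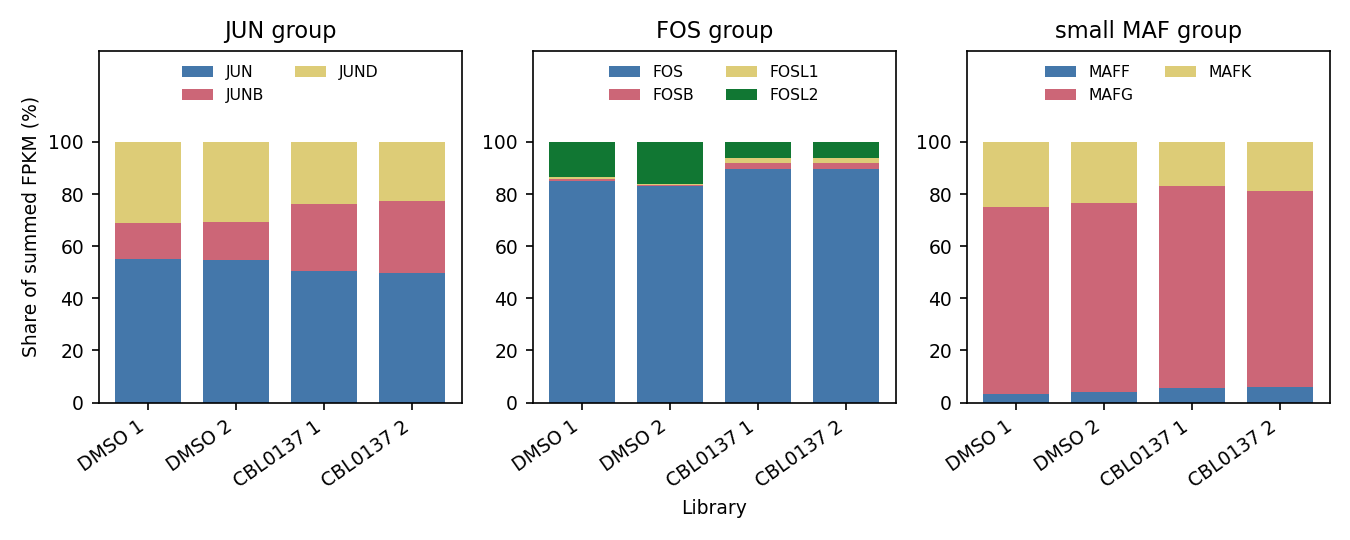
Share of each gene in the summed deposited FPKM of its group, per library (bars stack to 100%). JUNB took 13.8% and 14.4% of the JUN group with DMSO and 25.6% and 27.5% with CBL0137, and FOSL2 took a smaller share of the FOS group in both treated libraries.

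FOS (ENSG00000170345, chromosome 14, 75745529 to 75748933, plus strand) was the most abundant FOS-type gene. It had 17.0 and 16.6 CPM with DMSO and 24.1 and 23.2 CPM with CBL0137, so both treated libraries were higher. The log2 fold change was 0.49 (SE 0.10, edgeR adjusted p = 4.4e-05), under the fold limit of 0.58. With library size alone it was 0.65 and with log2(FPKM + 0.1) 0.61, both called. Library size alone moved the median of all tested genes by 0.16, so relative to that median the value of FOS was not larger.

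FOSB (ENSG00000125740, chromosome 19, 45971253 to 45978437, plus strand), an early gene whose short splice form accumulates in stimulated neurons, had 9 and 3 counts with DMSO and 33 and 24 counts with CBL0137. These are 0.475 and 0.161 CPM against 1.5 and 1.08 CPM. The fold was 3.99, a log2 value of 1.996 (SE 0.53, edgeR adjusted p = 0.00121), and over the summed counts the ratio was 4.05 (exact 95% interval 2.15 to 8.28, counting error only). FOSB passed the low-count filter through the CBL0137 libraries alone, so a member this low with DMSO could only be tested if it was higher with CBL0137. Without DMSO replicate 2, the library with 3 counts, its value was 1.41 and no longer called; without DMSO replicate 1 it was 2.94. The call was also lost with log2(FPKM + 1), at 0.26, and FOSB did not pass the stricter filter of 50 counts in 2 libraries. The DNA repair gene ERCC1 overlaps FOSB on the opposite strand without sharing exon bases and was at -0.33.

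FOSL1 (ENSG00000175592, chromosome 11, 65659520 to 65668044, minus strand), which encodes FRA-1 and is itself an AP-1 target in many tumours, was close to the limit of detection. It had 3 and 7 counts with DMSO and 16 and 9 with CBL0137. The groups did not overlap, yet the ratio over summed counts was 2.13 with an exact 95% interval from 0.988 to 4.97. In the fit with no filter on low counts its log2 fold change was 1.05 (SE 0.62, edgeR adjusted p = 0.325). The deposited FPKM values were 0.042 and 0.0389 with DMSO and 0.231 and 0.216 with CBL0137, a wider gap than in the counts, and the reason was not tested. From the counts, a difference in FOSL1 did not pass the test.

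FOSL2 (ENSG00000075426, chromosome 2, 28615315 to 28640184, plus strand), which encodes FRA-2, was the FOS-type gene that fell. It had 10.6 and 12.9 CPM with DMSO and 6.23 and 6.58 CPM with CBL0137. Both treated libraries lay below both vehicle libraries, and the log2 fold change was -0.88 (SE 0.15, edgeR adjusted p = 3.1e-06). The call was lost with FPKM, at -0.36 on the log2(FPKM + 1) scale, under the fold limit, and at -0.68 (SE 0.22, limma adjusted p = 0.0652) on the log2(FPKM + 0.1) scale, past the fold limit but not the p limit. The antisense gene FOSL2-AS1 had 0 counts in all 4 libraries.

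FOSL2 took 13.6% and 16.2% of the summed FOS-type FPKM with DMSO and 6.03% and 6.22% with CBL0137, and FOS 84.9% and 83.1%, then 89.7% and 89.8%. The ratio of FOSL2 to FOS counts was 0.624 and 0.78 with DMSO and 0.258 and 0.284 with CBL0137. FOSB (at most 2.26%) and FOSL1 (at most 2.01%) made up little of the sum in any library. The FOS-type genes as a whole held 13.2% and 12.1% of the FOS- and JUN-type FPKM with DMSO and 14.3% and 15.3% with CBL0137.

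BATF3 (ENSG00000123685, chromosome 1, 212859759 to 212873182, minus strand), a JUN partner best known from dendritic cell development, fell further than any other tested member. It had 86 and 93 counts with DMSO and 29 and 29 with CBL0137, or 4.54 and 4.99 CPM against 1.32 and 1.31 CPM. By counts the treated libraries were nearly equal and far below the vehicle libraries. The deposited FPKM values were 2.84 and 3.13 with DMSO and, further apart, 0.793 and 0.438 with CBL0137. The log2 fold change was -1.85 (SE 0.27, edgeR adjusted p = 1e-07), and the ratio over summed counts was 0.276 (exact 95% interval 0.202 to 0.373). BATF3 was called lower in each of 14 alternatives, between -2.15 and -1.31, though the alternative without a fold limit could not lose a call. Its GC content of 45.6% is close to the middle of the tested genes, and of the 3450 genes between 45.1% and 50.9% GC, 15.3% were called higher and 15.4% lower.

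The small MAF genes MAFF and MAFK encode short proteins that pair with NFE2-type and BACH proteins at antioxidant and MAF recognition elements. MAFF (ENSG00000185022, chromosome 22, 38596774 to 38612514, plus strand) had 26 and 40 counts with DMSO and 79 and 76 with CBL0137, which is 1.37 and 2.15 CPM against 3.59 and 3.43 CPM. Both treated libraries were higher, and the log2 fold change was 1.00 (SE 0.28, edgeR adjusted p = 0.00213). This call was the least stable of those that rose: it was lost with DESeq2 (0.98, adjusted p = 0.0678), without DMSO replicate 1 (0.69), with the GC and length trend removed (0.61, adjusted p = 0.0604) and with log2(FPKM + 1) (0.53). PLA2G6, a phospholipase gene on the opposite strand that shares 326 exon bases with MAFF, rose by 1.26 (SE 0.10). The part of PLA2G6 reads in the MAFF value was not tested.

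MAFK (ENSG00000198517, chromosome 7, 1570338 to 1582679, plus strand) had 16.3 and 14.2 CPM with DMSO and 15.9 and 15.1 CPM with CBL0137, so the treated values fell between the vehicle values. The log2 fold change was 0.03 (95% interval -0.20 to 0.25, edgeR adjusted p = 0.853). With the GC and length trend removed it was at -0.41 (SE 0.11), still under the fold limit, and its GC content is 63.4%. TMEM184A, opposite to MAFK with 809 shared exon bases, had a mean of 0.0528 CPM with DMSO and 0.34 CPM with CBL0137. MAFG, the third small MAF gene, was the most abundant of these genes per length, with 71.8% and 72.3% of their summed FPKM with DMSO and 77.8% and 75.2% with CBL0137. Its log2 fold change was 0.48 (SE 0.06, edgeR adjusted p = 7.3e-09), under the limit, and it was called with library size alone (0.64) and with FPKM.

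**Figure D3:**
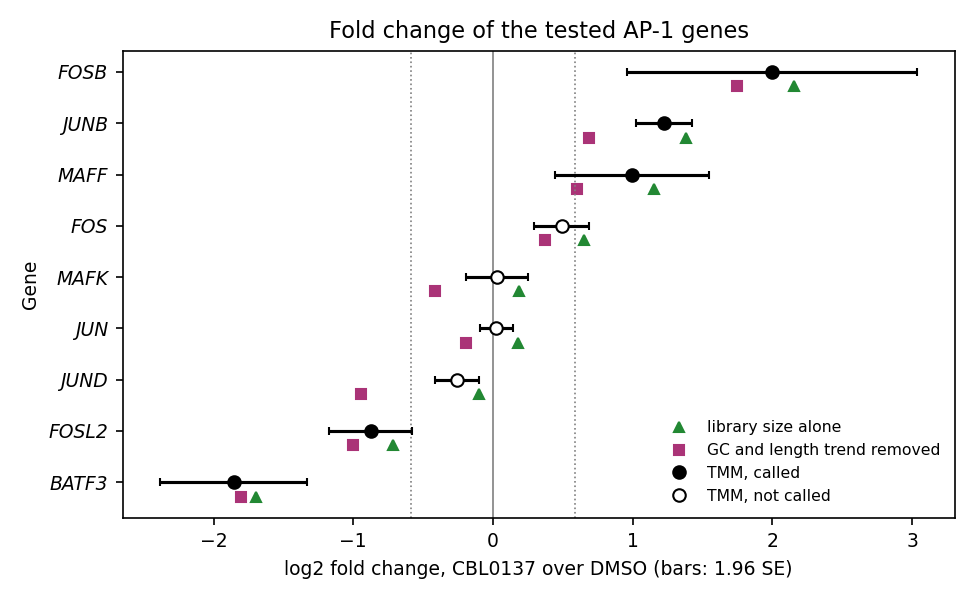
Log2 fold change of the 9 tested AP-1 genes (circles, with 95% intervals), and the values with library size alone (triangles) and with the GC and length trend removed (squares). Dotted lines are the 1.5-fold limits. JUNB stood at 1.22, 1.38 and 0.69 in the 3 analyses and JUND at -0.26, -0.10 and -0.94, while BATF3 stayed between -1.85 and -1.70.

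Ordered by deposited FPKM, the vehicle cells had JUN at 29.97 ± 2.71 (SD, n = 2), JUND at 16.8 ± 1.47, JUNB at 7.7 ± 0.961, FOS at 6.63 ± 0.0562, MAFK at 3.65 ± 0.217, BATF3 at 2.98 ± 0.205, FOSL2 at 1.18 ± 0.174 and MAFF at 0.569 ± 0.073. FOSB (0.0449 ± 0.0408) and FOSL1 (0.0405 ± 0.00221) came last and overlapped. Other neighbours in this order did not overlap by FPKM, though BATF3 and FOSL2 did by CPM per kb. With CBL0137 the order opened with JUN (32.8 ± 2.94), JUNB (17.3 ± 0.549), JUND (15.3 ± 1.73) and FOS (10.2 ± 0.191). By FPKM JUNB stood above JUND with CBL0137, whereas by CPM per kb of exon JUND (21.2 ± 2.56) was above JUNB (18.2 ± 0.17). BATF3 moved from 6th to 8th place, at 0.615 ± 0.251, where it overlapped FOSL2 (0.694 ± 0.0012).

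For FOSB, the tested member with the highest log2 fold change, and BATF3, the lowest, the 3 genes of like abundance with the nearest profile over the 4 libraries were taken. Likeness was the Euclidean distance between log2 CPM values centred on each gene's mean. For FOSB these were the lncRNA genes LINC02288 (distance 0.15) and ENSG00000264937 (0.15) and PLA2R1, a phospholipase A2 receptor gene (0.20), among 3923 candidates. For BATF3 they were ZMAT4, a zinc finger gene (0.06), GZMM, the gene of granzyme M (0.12), and the pseudogene GUSBP9 (0.13), among 3006. With 4 libraries such profiles mostly reflect the difference between groups. The 3 genes nearest to FOSB, like FOSB itself, passed the low-count filter through the CBL0137 libraries alone. Genes that low with DMSO could be candidates only if they were higher with CBL0137.

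Other bZIP genes that can pair with or stand beside AP-1 subunits went both ways: of 23 tested from a list of 27, 2 rose, 5 fell and 16 were not called (3 and 4 with library size alone), with a median log2 fold change of -0.07. The shares were 8.7% higher and 21.7% lower, while 18.2% and 15.1% of all tested genes were called. The genes that rose were the large MAF genes MAFA and MAF, lineage regulators of islet and lens cells among others. MAFA went from 14.4 ± 0.991 to 66.7 ± 0.717 CPM (SD, n = 2; log2 fold change 2.21, SE 0.08, edgeR adjusted p = 8.4e-25), and MAF rose by 2.19 (SE 0.16). ATF3, a stress-induced JUN partner, fell from 77.6 ± 3.22 to 35.7 ± 0.893 CPM (-1.12, SE 0.07), and ATF4, the effector of the integrated stress response, from 907 ± 37.5 to 521 ± 36.3 CPM (-0.80, SE 0.05). ATF5 (-0.80) and the repressor gene NFIL3 (-1.31) also fell. JDP2, a repressor that pairs with JUN, fell by 0.67 (SE 0.08), a call lost with library size alone (-0.52), on both FPKM scales (-0.40 and -0.43) and without CBL0137 replicate 1 (-0.56). BATF had 0 and 0 counts with DMSO and 2 and 1 with CBL0137, too few to test.

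Of the kinases and factors that act upstream of AP-1, 36 of 38 listed genes were matched and tested, and 4 rose, 0 fell and 32 were not called (median -0.09). The shares were 11.1% higher and 0% lower, beside 18.2% and 15.1% of all tested genes. With no fold limit, edgeR had 13 of the 36 lower and 9 higher at an adjusted p under 0.05. The numbers were the same at an unadjusted p under 0.05. Of all tested genes, 61.7% reached an adjusted p under 0.05 in either direction. The 0 lower thus rested on the 1.5-fold limit. DESeq2 also called 0 lower (12 at an unadjusted p under 0.05). The 4 that rose were MAPK13, a p38 kinase gene (1.33 ± 0.0152 to 7.72 ± 0.138 CPM, log2 fold change 2.53), MEF2D, a transcription factor gene (0.95, SE 0.07), MAP2K3, a p38-activating kinase gene (0.83), and RPS6KA1, a kinase gene downstream of ERK (0.77, SE 0.09). RPS6KA1 was at 0.54 and not called once the GC and length trend was removed. MAPK8, the gene of the JUN kinase JNK1, was at -0.35 (SE 0.09, edgeR adjusted p = 7e-04) under the fold limit. SRF, which binds the serum response element of FOS, was at -0.10 (SE 0.07, edgeR adjusted p = 0.237), and its sign turned with library size alone (0.06).

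Other immediate early genes, which share upstream signals with FOS and JUNB, also divided: 7 of 21 tested rose, 6 fell and 8 were not called (median -0.01), or 33.3% higher and 28.6% lower, beside 18.2% and 15.1% of all tested genes. ZFP36, which encodes an mRNA-destabilising protein, rose from 3.38 ± 0.225 to 11.9 ± 0.191 CPM (SD, n = 2; log2 fold change 1.82, SE 0.17, edgeR adjusted p = 1.8e-12). EGR1, a zinc finger early gene, rose from 0.586 ± 0.0819 to 1.81 ± 0.438 CPM (1.62, SE 0.43), a call lost with log2(FPKM + 1). IER2 (0.71), IER5 (0.74), GADD45B (0.73), BTG2 (0.65) and NR4A2 (0.74) were the others that rose. PPP1R15A, the stress-induced phosphatase subunit gene, fell from 143 ± 10.3 to 65.3 ± 3.4 CPM (-1.13, SE 0.06), and CCN1, a matricellular gene, by 0.89 (SE 0.08). SGK1 (-1.11), EGR2 (-0.82), KLF6 (-0.77) and TRIB1 (-0.74) also fell. DUSP1, a MAP kinase phosphatase gene, was at -0.01 (SE 0.10, edgeR adjusted p = 0.937), and its sign varied with the scaling. With the GC and length trend removed 4 rose and 8 fell.

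Genes known as AP-1 targets in other cells also went both ways. Of 43 listed, 8 had 0 counts in all 4 libraries and 22 were tested, of which 6 rose, 4 fell and 12 were not called (median 0.03). That is 27.3% higher and 18.2% lower, beside 18.2% and 15.1% of all tested genes. Of the 6 that rose, 2 (IL11 and S100A2) passed the low-count filter through the CBL0137 libraries alone, and 2 of the 4 that fell, HMOX1 among them, through the DMSO libraries alone, so these could be called in that direction only. The cyclin gene CCND1 fell from 1149 ± 10.1 to 549.9 ± 33.3 CPM (SD, n = 2; log2 fold change -1.06, SE 0.05, edgeR adjusted p = 1.6e-20). PLAUR, the urokinase receptor gene, fell by 0.98 (SE 0.09), and the heme oxygenase gene HMOX1, which small MAF partners also control, from 2.93 ± 0.41 to 0.34 ± 0.162 CPM. CDKN1A, which encodes the cell cycle inhibitor p21, rose from 1.22 ± 0.164 to 9.37 ± 1.08 CPM (2.93, SE 0.23), and TGFB1 from 68.9 ± 2.52 to 113 ± 1.13 CPM (0.72, SE 0.06), or 0.26 and not called with the GC and length trend removed. IL11, S100A2, DUSP5 and NQO1 also rose. The collagenase gene MMP1, a classical AP-1 target, had 0 and 5 counts with DMSO and 2 and 0 with CBL0137 and was not tested.

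**Figure D4:**
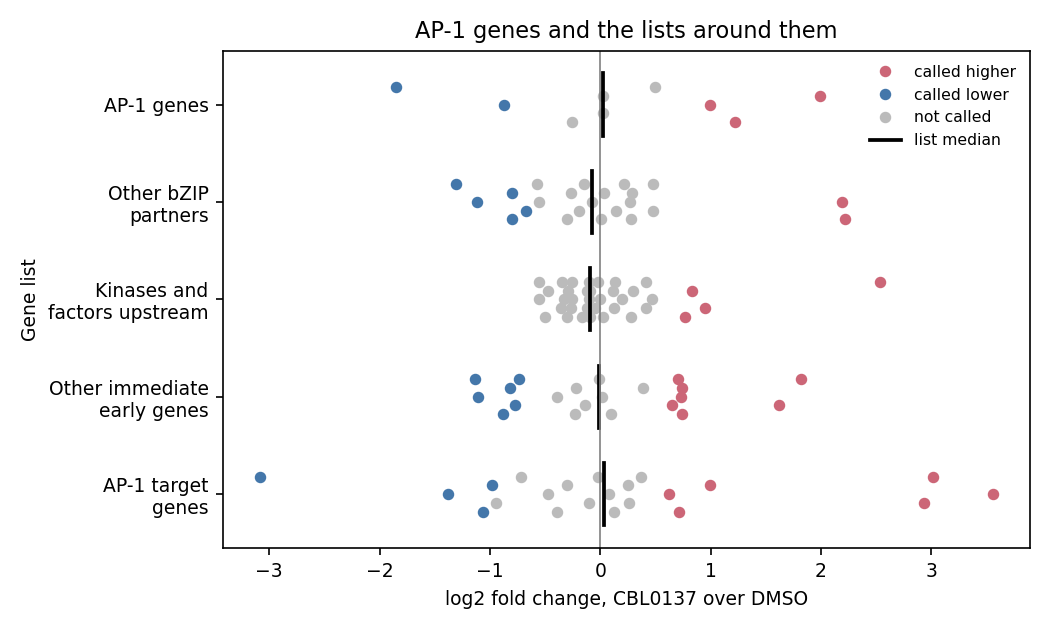
Log2 fold change of each tested gene in the AP-1 list and in 4 lists around it, coloured by call, with the list medians as vertical lines. The medians lie between -0.09 and 0.03, close to the 0.01 of all tested genes. Each list had genes on both sides of 0. Calls went both ways in each list, except that 0 upstream genes were called lower at the 1.5-fold limit.

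The libraries held 19625517 to 21061892 reads assigned to genes. Over all tested genes 3166 (18.2%) were called higher and 2632 (15.1%) lower, and 4134 and 1879 with library size alone. Of 9 Ewing sarcoma markers all were tested, and 6 fell and 0 rose in edgeR and in DESeq2 (2 and 1 higher at an unadjusted p under 0.05), and their summed level was 2024 to 2029 CPM with DMSO and 976 to 1040 CPM with CBL0137. The 3 not called were LIPI (0.35), NKX2-2 (0.23) and STEAP1 (-0.24). Each had an edgeR adjusted p under 0.05 but was under the fold limit. Of 8 immune markers 2 were tested and 0 called by edgeR or DESeq2 (1 lower at an unadjusted p under 0.05 in both), 1 (MS4A1) was at 0 counts in every library, and their summed level was 163 CPM in both DMSO libraries and 108 to 125 CPM with CBL0137, nearly all of it PTPRC. PTPRC was the lower one, at -0.49 (SE 0.06, edgeR adjusted p = 1.4e-09), and only the fold limit kept it uncalled in edgeR. Of 6 epithelial markers 3 were tested, 2 rose (EPCAM and KRT19) and 1 fell (ESRP1). Their sum was 131.9 and 110.8, then 26.3 and 31.2 CPM, most of it ESRP1 (129.0 and 107.7, then 17.3 and 21.0 CPM). KRT19 passed the low-count filter through the CBL0137 libraries alone, so it could be called higher only. Of 6 endothelial markers 3 were tested, 1 rose and 1 fell (10.3 to 10.9, then 9.27 to 9.96 CPM), and of 6 fibroblast markers 2 rose and 2 fell (950 to 957, then 1230 to 1237 CPM). The rise of the fibroblast sum lay in COL1A1, from a mean of 123 CPM with DMSO to 455.5 CPM with CBL0137. PDGFRA also rose (0.371 to 1.58 CPM). LUM (-0.79) and FAP (-0.74) fell, and DCN (-0.52) and COL1A2 (0.03) were not called. Reads in no annotated gene were 8.52% to 8.82% of counted reads with DMSO and 10.2% to 10.3% with CBL0137, and mitochondrial genes took 3.44% to 3.58% and 3.72% to 3.87% of assigned reads. The part of these differences in the AP-1 values was not tested. In bulk RNA, fewer cells expressing a gene and less of its RNA per cell cannot be told apart.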

How the data were processed

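RNA-seq was made from SKNMC cells in 2 groups of 2 libraries, grouped and numbered by the sample titles. The authors trimmed reads with Trim Galore, aligned them to hg19 with HISAT2 and deposited raw counts per gene from HTSeq 0.11.1, per the series' design text; DESeq2 1.26.0 is also named there, and mm10 appears in the submitters' processing notes with no role given. The authors also deposited FPKM values, which take gene length and depth into account, per the same text. No source used here gives the annotation, strand setting or FPKM tool. The authors' FPKM is no rescaling of the counts, since 5103 genes with 0 counts everywhere have an FPKM above 0.

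The table's 60617 gene entries were used, and 6 rows that name no gene were left out. Counts were tested with edgeR 4.0.16 (quasi-likelihood F test, TMM, filterByExpr at about 10 counts in 2 libraries) in R 4.3.3; SE is the absolute log2 fold change over the square root of F, and 95% intervals are the estimate plus or minus its normal multiple of SE. CPM uses TMM effective library sizes. Calls need a Benjamini-Hochberg adjusted p under 0.05 over all 17374 tested genes and a fold above 1.5. Replicates differed by more than sampling noise (chi-square per degree of freedom 2.42 and 2.25). Ratios over summed counts have exact 95% intervals for counting error only, since reads carry no molecular identifiers as far as the labels say. Gene models were GENCODE release 44 on GRCh37, the build of hg19, and symbols came from a separate list. The listed MKL1 and MKL2 were matched to no identifier and not used here. Alternatives used DESeq2 1.42.0, limma 3.58.1 on log2(FPKM + 1) and log2(FPKM + 0.1), other scalings and filters, no fold limit, each library left out, a replicate block, and an offset for the trend with GC and length (mgcv 1.9.3; 99.3% of tested genes had both). The code was tested on simulated data.

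Named genes are all 10 members, the 3 genes of smallest p in each of 4 lists, 9 fixed genes and the nearest profiles; other list genes are named to complete counts of calls, chosen after their values were seen. Values of 1 gene of the AP-1 target list are not reported here. The members and lists were chosen with earlier results of these data known.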

Additional observations from a re-analysis of the deposited data

How the results depend on the processing

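Over 14 alternatives, 33 tested named genes gave 456 values: 404 kept direction and call, 27 lost the call, 10 gained it and 15 changed sign. Of the 404, 29 came from the setting without a fold limit, which reuses the main fit and could neither lose a call nor change a sign. The sign changes were all in 4 uncalled genes. JUN was at -0.19 and MAFK at -0.41 with the GC and length trend removed, SRF at 0.0589 with library size alone, and DUSP1 at 0.15 under library-size scaling, 0.0573 under upper-quartile factors, 0.0290 with the stricter filter, 0.0854 with log2(FPKM + 1) and 0.10 with log2(FPKM + 0.1). With each library left out, JUN ranged from -0.0761 to 0.11, MAFK from -0.0839 to 0.11, SRF from -0.23 to 0.0164 and DUSP1 from -0.14 to 0.10.

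Log2(FPKM + 1) called 1 member higher and 1 lower, 1860 genes higher and 1363 lower, 4 bZIP partners higher and 3 early genes lower. Log2(FPKM + 0.1) called 1 member lower, 4 bZIP partners higher and 8 upstream genes higher. Without a fold limit 5347 genes were higher and 5375 lower, with 7 bZIP partners higher and 10 lower, 9 upstream genes higher and 13 lower, and 7 targets lower. With the GC and length trend removed 2 members were higher and 3 lower, 2 upstream genes lower and 4 early genes higher. With a library left out, 2 to 3 members were higher, 2 lower, and 0 to 1 upstream genes lower. The causes were not tested, apart from the missing fold limit, which adds calls by construction.

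The labels do not say whether libraries with the same replicate number were handled together. The differences between replicates 1 and 2 of the groups correlated at 0.02 across genes, which cannot settle that. With the replicate block 3129 genes were higher and 2612 lower, and members stood at 3 and 2.

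CPM per kb of exon in place of FPKM gave these differences in share, CBL0137 minus DMSO in percentage points: FOS 9.75, FOSL1 1.39, FOSL2 -12.95, JUN -3.9, MAFF 0.892, MAFK -4.65, and the FOS-type genes of all FOS- and JUN-type genes 1.07, each in the same direction as with FPKM. In the order of levels it put FOSL1 at 9 and FOSB at 10 in both groups, and with CBL0137 JUND at 2, JUNB at 3, FOSL2 at 6 and MAFF at 7. By CPM per kb the FOSL1 shares overlapped between the groups (1.20% and 2.75% with DMSO, 4.24% and 2.50% with CBL0137). Depth limits FOSB, FOSL1 and MAFF most, with 12, 10 and 66 counts over both DMSO libraries.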

Other observations

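The genes that flank the AP-1 genes on GRCh37 were looked up after the values above were seen, and are given as values only. Of the 20 nearest tested neighbours, 1 on each side of each AP-1 gene, 5 were called higher, 2 lower and 13 not called. Of all tested genes, 18.2% were called higher and 15.1% lower. BATF3 and ATF3 are neighbours on chromosome 1, with 65640 bases between them and no other tested gene, and both fell (-1.85 and -1.12), while NSL1 on the other side of BATF3 was at 0.13 and not called. CCDC85B, with 414 bases between it and FOSL1, stood at 15.6 ± 3.41 CPM with DMSO and 35.9 ± 0.197 CPM with CBL0137 (SD, n = 2), and rose by 1.21 on the log2 scale (SE 0.10). RTN2, a reticulon gene 10115 bases from FOSB, rose by 1.59 (SE 0.25), and BABAM2, 53547 bases from FOSL2, had a log2 fold change of -0.99 (SE 0.11) and was called lower, while PLB1, 39828 bases away on the other side of FOSL2, rose by 1.57 (SE 0.61). The other neighbours of FOSB (POLR1G, 0.25) and FOSL1 (C11orf68, -0.21) were not called. IQCN, 5194 bases from JUND, rose by 1.42 (SE 0.50), and ENSG00000279080, 50155 bases from MAFF, by 2.39 (SE 0.69). PLB1 and ENSG00000279080 passed the low-count filter through the CBL0137 libraries alone, so they could be called higher only. Around JUNB, GET3 (0.12) and PRDX2 (0.31) were not called.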
